A study of Homo sapiens with 18 samples.

Results

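The interferon regulatory factors (IRFs) were followed in THP-1, a human monocytic leukaemia cell line. The set was fixed by gene name and comprised 9 of the 63677 genes in the count table, namely IRF1, IRF2, IRF3, IRF4, IRF5, IRF7, IRF8, IRF9 and the IRF2 cofactor IRF2BP2. All 9 had counts, and 8 passed the filter on low counts and were tested. IRF4 did not pass and is given by its counts only.

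IRFs are transcription factors that bind GAAA repeats in promoters of interferon and interferon-stimulated genes through a shared winged-helix domain. IRF3, IRF5 and IRF7 are held in the cytoplasm until kinases downstream of Toll-like receptors and nucleic acid sensors phosphorylate them, so that their activity need not follow their mRNA level. IRF1 is itself an early induced gene, IRF2 can compete with IRF1 for the same sites, IRF4 and IRF8 act with PU.1 in lymphoid and myeloid cells, and IRF9 joins STAT proteins in the complex that answers type I interferon.

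Cells were transfected with 25 nM of an siRNA against TRAFD1 (KD) or of a scrambled siRNA (SCR), or received no siRNA (WT). After 72 h they were given lipopolysaccharide (LPS, a bacterial cell wall component sensed by TLR4) at 10 ng/ml, or medium alone, for 4 h. The labels describe WT both as untreated and as given the transfection mix without siRNA, so the effects of reagent and siRNA in a comparison with WT cannot be told apart. The 6 groups held 3 libraries each, numbered 1 to 3 in medium and 4 to 6 with LPS, all from 1 cell line and 1 siRNA per arm. The labels speak of triplicates without saying how far apart the cultures were, so p-values measure the spread between these libraries.

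Each library held between 8206023 and 22344279 counts, and a count of 0 allowed up to 3 counts, or 0.134 to 0.366 counts per 1000000 counts (CPM), counting error only. The protocol sequences the 3-prime end of polyadenylated RNA, so CPM need no length term between genes. Reads were counted over 500 bases at the end of each gene, so transcripts that end elsewhere may be missed. The share missed can differ by gene and was not measured, so levels of different genes compare only roughly. All 10 monocytic markers had counts, with a summed level of 527 to 649 CPM per library. T cell markers summed to at most 1.28 CPM, erythroid ones to at most 0.126 CPM with HBB at 0 throughout, epithelial ones to at most 3.16 CPM and fibroblast ones to at most 4.2 CPM. NK cell markers summed to 10.8 to 18.5 CPM, mostly NCAM1, and B cell markers to 29.3 to 52.6 CPM, mostly PAX5. TRAFD1, the siRNA target, was measured at 20.1 to 26.8 CPM in SCR and 5.37 to 11.6 CPM in KD in medium (log2 fold change -1.45 ± 0.23 SE, edgeR adjusted p = 0.028), and at 18.7 to 27.5 CPM against 13.8 to 15.8 CPM with LPS (-0.65 ± 0.22 SE, adjusted p = 0.26).

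IRF2BP2 had the highest CPM of the members and IRF4 the lowest in every group. In WT cells in medium IRF2BP2 stood at 425 ± 22 CPM, IRF7 at 108 ± 1.12, IRF8 at 101 ± 44.8, IRF1 at 88 ± 10.3, IRF5 at 66.7 ± 6.97, IRF2 at 18.9 ± 1.01, IRF3 at 15.2 ± 2.36, IRF9 at 3.21 ± 1.59 and IRF4 at 0.297 ± 0.0892 (SD, n = 3). Neighbours in this order had separate ranges in those 3 libraries except around IRF8, whose range of 66.2 to 151 CPM took in all values of IRF7 and IRF1 and overlapped that of IRF5. IRF4, a lymphoid and plasma cell factor, had 93 counts over all libraries and between 0 and 1.68 CPM per library. In the GRCh37 annotation used for symbols the members lay on separate chromosomes, with IRF1 at chr5:131776132-131844411, IRF2 at chr4:185306856-185395712, IRF3 at chr19:50162826-50169132, IRF5 at chr7:128577511-128590092, IRF7 at chr11:612553-615983, IRF8 at chr16:85932722-85956212, IRF9 at chr14:24630443-24637252 and IRF2BP2 at chr1:234740015-234745924.

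**Figure D1:**
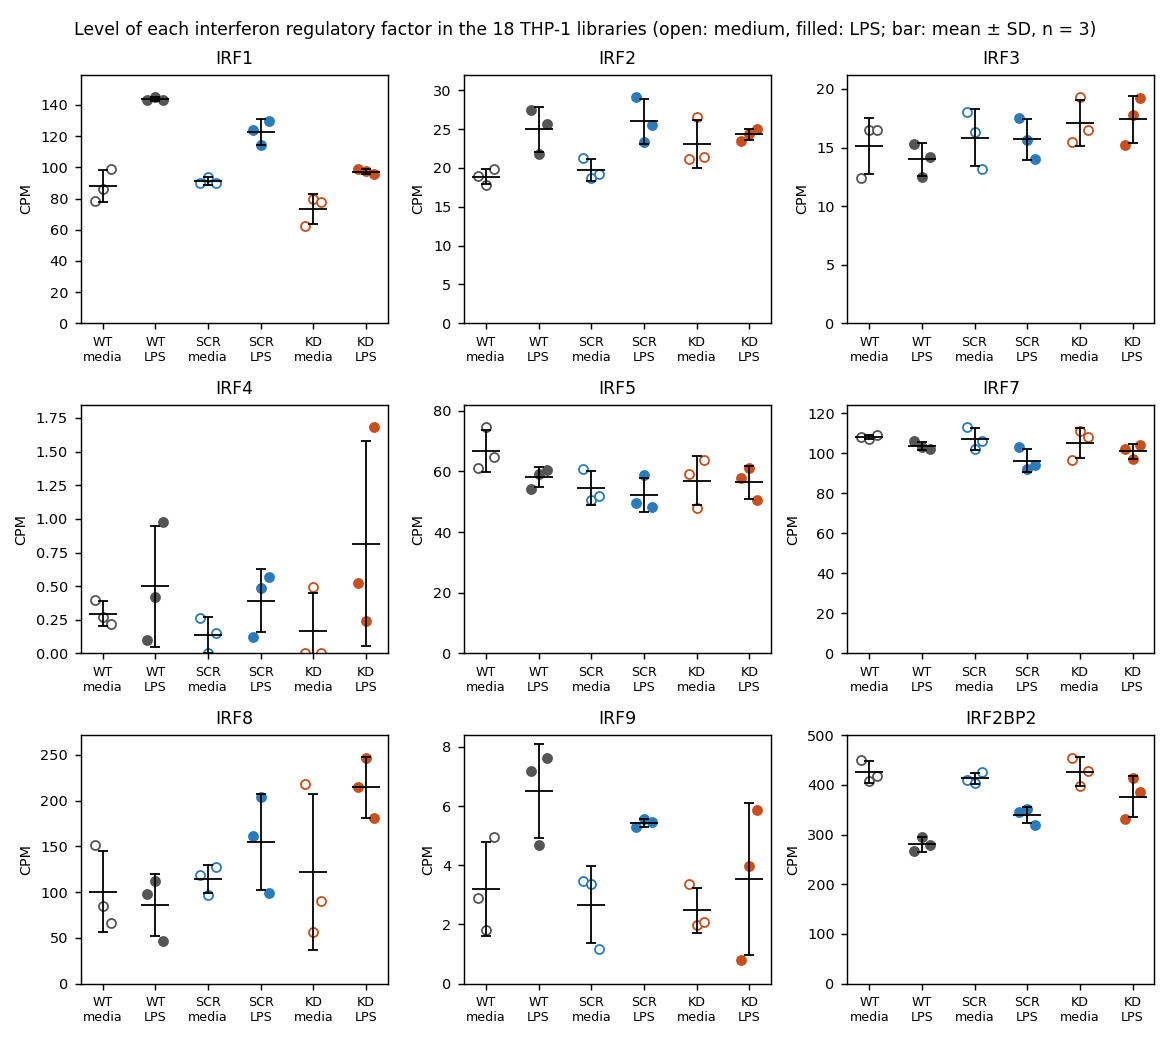
Level of each of the 9 members in CPM (vertical axis, from 0, its own scale per gene) in the 6 groups, with 1 point per library, open in medium and filled with LPS, and a bar for mean ± SD (n = 3). IRF1 stands higher and IRF2BP2 lower with LPS in WT and SCR without overlap, while IRF8 spreads from 47.1 to 247 CPM.

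LPS moved IRF1 and IRF2BP2 in opposite directions. IRF1, an activator of interferon-induced genes and of antigen presentation, was measured in WT cells at 78.7, 86.3 and 99.1 CPM in medium and at 143, 145 and 143 CPM with LPS. In SCR cells the values were 89.9, 94 and 89.8 CPM in medium and 124, 114 and 130 CPM with LPS. In KD cells they were 62.4, 79.8 and 77.8 CPM in medium and 98.7, 97.4 and 95.8 CPM with LPS. The stimulated libraries lay above all unstimulated ones of their own condition in each of the 3 conditions. The log2 fold change was 0.70 ± 0.10 SE in WT (adjusted p = 4.06e-05), 0.43 ± 0.10 in SCR (adjusted p = 0.0055) and 0.41 ± 0.10 in KD (adjusted p = 0.012). All are edgeR quasi-likelihood tests adjusted over the 16678 genes tested. In the KD cells the call was lost when only those 2 groups were fitted (0.40, adjusted p = 0.091).

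The 300 bases around the annotated start of IRF1 are shown because IRF1 rose in all 3 conditions, and those of IRF2BP2 because it moved the other way. Both are RefSeq sequence of GRCh38.p14 on the minus strand, from 250 bases before to 50 after the start. Capitals mark matches, on either strand, to TTCNNNGAA (the GAS motif of STAT dimers) or to the kappa-B motif of NF-kappa-B. The ISRE core GAAANNGAAA of the IRFs was searched as well.
IRF1, chr5:132490724-132491023: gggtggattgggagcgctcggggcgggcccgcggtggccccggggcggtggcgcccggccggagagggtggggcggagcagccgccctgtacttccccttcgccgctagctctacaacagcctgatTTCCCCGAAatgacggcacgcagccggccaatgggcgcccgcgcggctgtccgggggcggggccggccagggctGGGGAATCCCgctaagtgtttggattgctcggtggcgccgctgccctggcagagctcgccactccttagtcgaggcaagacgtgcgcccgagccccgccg
IRF2BP2, chr1:234610129-234610428: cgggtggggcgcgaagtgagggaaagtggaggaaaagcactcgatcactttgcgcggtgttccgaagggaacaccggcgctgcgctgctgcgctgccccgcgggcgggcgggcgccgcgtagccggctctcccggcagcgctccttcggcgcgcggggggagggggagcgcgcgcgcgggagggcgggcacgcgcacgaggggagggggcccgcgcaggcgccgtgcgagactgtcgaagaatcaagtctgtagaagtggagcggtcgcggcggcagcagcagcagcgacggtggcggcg
The IRF1 window held the GAS match TTCCCCGAA at 124 to 116 bases before the start and the kappa-B match GGGGAATCCC at 50 to 41 bases before it, which do not overlap. The IRF9 window, at chr14:24161015-24161314 on the plus strand, held the GAS match TTCTGGGAA at 63 to 55 bases before the start. The windows listed for IRF4, IRF5, IRF8 and IRF2BP2 held none of these letters, and starts outside the listed windows were not searched. Both IRF8 windows, at chr16:85902580-85902879 and chr16:85902765-85903064, may lie inside the gene and not at its main start. They therefore say nothing of the main IRF8 promoter. Of 35116 RefSeq promoter windows of the same length, 7.66% held the GAS motif, 11.3% the kappa-B motif and 3.57% the ISRE core, so these matches describe the windows and show no binding.

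IRF2BP2, a zinc finger cofactor that works with IRF2 as a repressor, fell with LPS in WT and SCR cells. It was measured in WT at 450, 408 and 417 CPM in medium and at 266, 296 and 279 CPM with LPS. In SCR the values were 409, 404 and 426 CPM in medium and 346, 351 and 320 CPM with LPS, again without overlap. In KD they were 455, 398 and 427 CPM in medium and 331, 413 and 385 CPM with LPS, and here 1 stimulated library lay inside the unstimulated range. The log2 fold change was -0.60 ± 0.09 SE in WT (adjusted p = 3.79e-05) and -0.28 ± 0.09 in SCR (adjusted p = 0.026). The value in KD was -0.18 ± 0.09 (adjusted p = 0.19). An offset for the GC content of the gene ends gave -0.35 in KD (adjusted p = 0.0046), and IRF2BP2 had the lowest GC share of the members there (31.6%, against 41.2% to 62.2% for the others). The SCR call was lost without SCR medium replicate 1 or 3 or SCR LPS replicate 4 or 6, with adjusted p up to 0.12.

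IRF2, which binds the same sites as IRF1 and is mostly a repressor, was measured in WT at 19, 17.8 and 19.8 CPM in medium and at 27.4, 21.8 and 25.7 CPM with LPS. In SCR it stood at 21.3, 18.7 and 19.2 CPM in medium and 29.1, 23.3 and 25.5 CPM with LPS. In KD it stood at 21.2, 26.6 and 21.4 CPM in medium and 23.5, 24.4 and 25 CPM with LPS. The groups did not overlap in WT and SCR and overlapped in KD. IRF2 rose by a log2 fold change of 0.40 ± 0.13 SE in WT (adjusted p = 0.047) and 0.39 ± 0.13 in SCR (adjusted p = 0.048), and its value in KD was 0.08 ± 0.13 (adjusted p = 0.76). Both calls lay close to the threshold, and each was lost in 5 of the 6 fits that left out 1 library (adjusted p up to 0.20 in WT and 0.21 in SCR). Of the 6 other alternatives, 2 kept the call in WT (adjusted p up to 0.18) and 4 kept that in SCR (up to 0.16).

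The 3 factors that are activated by phosphorylation did not pass the test in any condition. IRF3, the first factor used on the TICAM1 branch of TLR4 signalling, ran from 12.4 to 19.3 CPM over the 18 libraries, with log2 fold changes between -0.12 and 0.03 (SE 0.16). IRF5, which acts with MYD88 in the induction of inflammatory cytokines, ran from 48 to 74.5 CPM, with values between -0.20 and -0.01 (SE 0.12 to 0.13). IRF7, the factor that amplifies type I interferon, ran from 92 to 113 CPM, with values between -0.15 and -0.06 (SE 0.09). IRF7 had the narrowest spread of all members, with a pooled SD of log2 CPM within groups of 0.067, against a median of 0.131 for the 500 genes nearest to it in mean level, of which 1.2% had a smaller SD.

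IRF9, the DNA-binding subunit of its complex with STAT proteins, was the lowest member tested. It was measured in WT at 2.88, 1.82 and 4.94 CPM in medium and 7.2, 4.68 and 7.64 CPM with LPS, and in SCR at 3.47, 3.38 and 1.16 CPM in medium and 5.3, 5.56 and 5.46 CPM with LPS. In KD it stood at 3.36, 1.98 and 2.1 CPM in medium and 0.786, 3.96 and 5.87 CPM with LPS. The groups were separate in SCR alone. The log2 values of 0.97 ± 0.47 SE in WT (adjusted p = 0.19), 1.01 ± 0.48 in SCR (adjusted p = 0.16) and 0.52 ± 0.49 in KD (adjusted p = 0.54) did not pass. IRF9 had 9 to 111 counts per library. At nearly the same log2 values it passed without the filter on low counts in WT (0.96, adjusted p = 0.0395) and SCR (1.01, adjusted p = 0.0283), and in SCR with only those 2 groups fitted (adjusted p = 0.0473). Without KD LPS replicate 6 the KD value was -0.01.

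**Figure D2:**
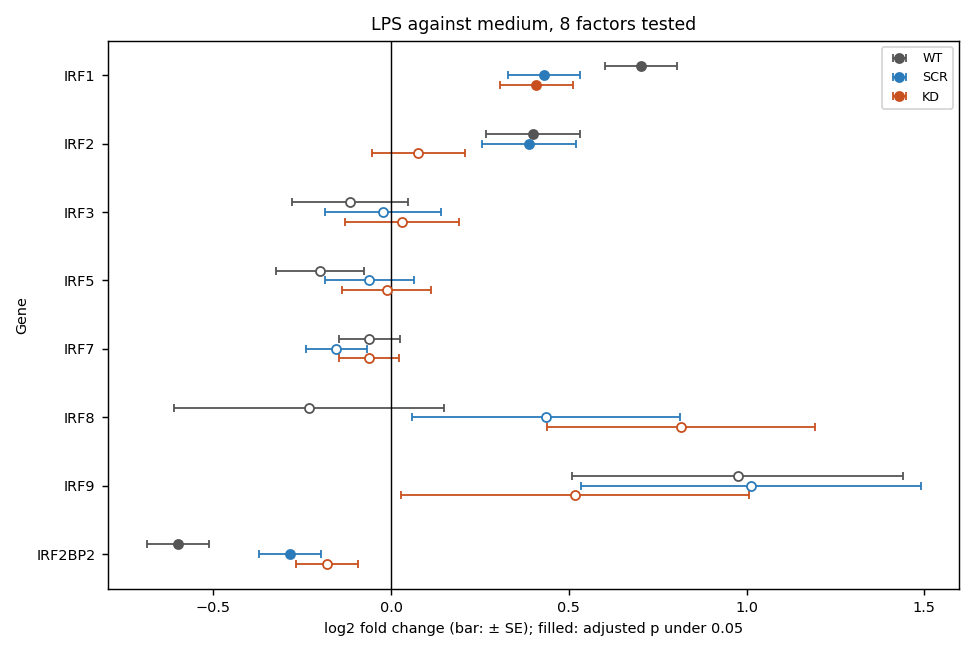
Log2 fold change of LPS against medium (horizontal axis, bar ± SE) of the 8 members tested in WT, SCR and KD cells, filled where the adjusted p was under 0.05. IRF1 lies above 0 in all 3 conditions, IRF2BP2 falls to -0.60 in WT, and the bars of IRF8 and IRF9 are the widest.

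Among the 8 members tested, 2 rose and 1 fell with LPS in WT, 2 rose and 1 fell in SCR, and 1 rose and none fell in KD. Over all genes tested the shares that rose and fell were 7.01% and 7.26% in WT, 8.64% and 8.56% in SCR, and 6.41% and 5.05% in KD. The members had a median log2 value of -0.09 for WT, 0.18 for SCR and 0.05 for KD, beside -0.03, -0.03 and -0.003 over all genes. The tests of whether a response differed between conditions called none of the 8 members with edgeR, and the same count was 0 with DESeq2. At an unadjusted p under 0.05 the comparison of KD with SCR had 0 members, that of SCR with WT had 1 and that of KD with WT had 1, in each of the latter IRF2BP2. Over all genes these tests called 0% for KD against SCR, where 1274 genes had an unadjusted p under 0.05 and DESeq2 called 3 (0.018%). They called 0.234% for SCR against WT and 0.36% for KD against WT, where DESeq2 called 0.564% and 1.97%. The IRF2BP2 response in KD differed from that in WT by 0.42 ± 0.12 (adjusted p = 0.14) and the IRF1 response by -0.29 ± 0.14 (adjusted p = 0.34). The IRF2 response in KD differed from that in SCR by -0.31 ± 0.19 (adjusted p = 0.71). A response that passed in WT or SCR and not in KD was therefore not shown to differ between them.

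Knockdown against the scrambled control left every member short of the threshold. In medium IRF1 was lower in all 3 KD libraries (62.4 to 79.8 CPM) than in any SCR library (89.8 to 94 CPM), with a log2 fold change of -0.32 ± 0.10 SE (unadjusted p = 0.0058, adjusted p = 0.19 by edgeR). With LPS the ranges were again separate, at 95.8 to 98.7 CPM in KD and 114 to 130 CPM in SCR, with -0.34 ± 0.10 (unadjusted p = 0.0035, adjusted p = 0.22). The share of all genes with separate ranges was not counted, and an exact permutation test of 3 against 3 cannot go below 0.1. The separate ranges therefore add nothing to the tests that IRF1 did not pass. IRF1 was the only member with an unadjusted p under 0.05 in either comparison. The others ran from -0.11 to 0.22 in medium and from -0.60 to 0.47 with LPS. Of the 8 members, 0 were called by edgeR and 0 by DESeq2 in either state. Over all genes edgeR called 0.066% in medium and 0% with LPS, where 1963 genes had an unadjusted p under 0.05. DESeq2 called 242 genes (1.8%) in medium and 110 (1.28%) with LPS.

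SCR against WT likewise called 0 of 8 members with edgeR and with DESeq2. Over all genes edgeR called 3.23% in medium and 0.114% with LPS, and DESeq2 called 6.61% and 2.47%. With LPS the same-numbered libraries of these groups deviated together, and with a replicate block edgeR called 0.809% of all genes and still 0 of 8 members. Unadjusted p-values under 0.05 were found for IRF5 in medium (-0.29 ± 0.12, 50.6 to 60.8 CPM in SCR against 61 to 74.5 CPM in WT). With LPS they were found for IRF2BP2 (0.28 ± 0.09, 320 to 351 CPM against 266 to 296 CPM), IRF1 (-0.22 ± 0.10, 114 to 130 CPM against 143 to 145 CPM) and IRF8 (0.85 ± 0.38, overlapping). KD against WT in medium called 0 of 8 members with either tool, beside 11.7% of all genes by edgeR and 13.9% by DESeq2, with unadjusted p-values under 0.05 for IRF1 (-0.26 ± 0.10) and IRF2 (0.28 ± 0.13).

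KD against WT with LPS was the one comparison between conditions that called members. TRAFD1 itself was not called there, at 14.5 CPM in KD and 17 CPM in WT (-0.23 ± 0.23 SE, adjusted p = 0.56), with overlapping ranges. In KD cells TRAFD1 rose with LPS by 0.73 ± 0.23 (adjusted p = 0.046). IRF1 was lower in KD by a log2 fold change of -0.56 ± 0.10 SE (adjusted p = 0.0029), at 95.8 to 98.7 CPM against 143 to 145 CPM. IRF2BP2 was higher by 0.42 ± 0.09 (adjusted p = 0.0054), at 331 to 413 CPM against 266 to 296 CPM. IRF8 was higher by 1.32 ± 0.38 (adjusted p = 0.031), at 181 to 247 CPM against 47.1 to 112 CPM. None of these ranges overlapped, but the share of all genes with separate ranges was not counted. The calls are 2 members higher and 1 lower of 8, beside 6.29% higher and 4.55% lower of all genes. This comparison shares its WT libraries with SCR against WT and its KD libraries with KD against SCR, where IRF1 stood at -0.22 and -0.34, IRF2BP2 at 0.28 and 0.15, and IRF8 at 0.85 and 0.47.

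**Figure D3:**
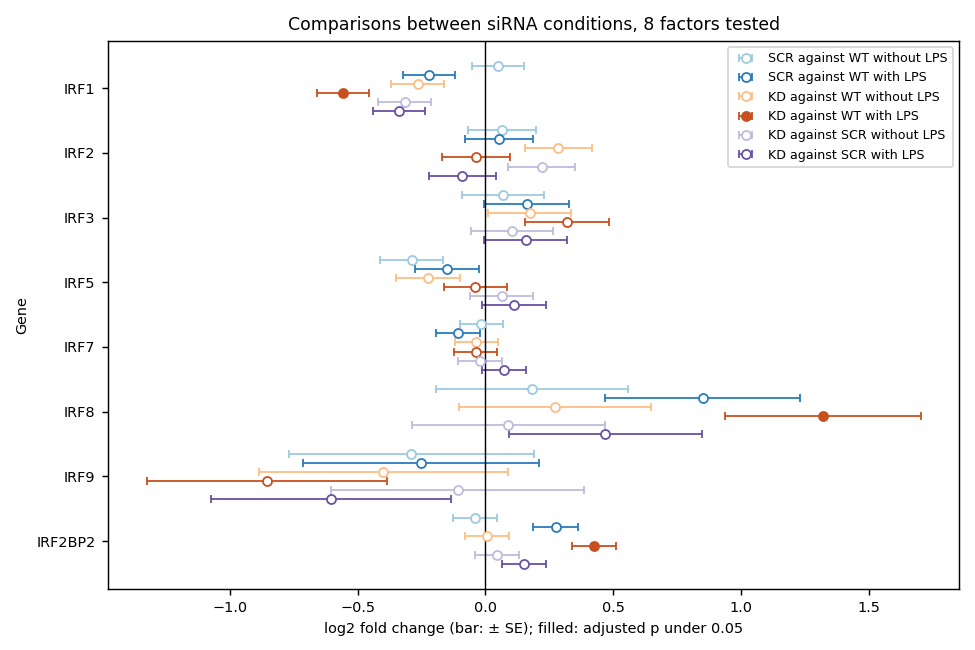
Log2 fold change between siRNA conditions (horizontal axis, bar ± SE) of the 8 members tested, within medium and within LPS, filled where the adjusted p was under 0.05. The 3 filled points, IRF1 at -0.56, IRF2BP2 at 0.42 and IRF8 at 1.32, all belong to KD against WT with LPS.

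IRF8, the factor that sets monocyte and dendritic cell fate together with PU.1, varied more between libraries of 1 group than any gene near it in level. It was measured in WT at 151, 84.6 and 66.2 CPM in medium and 98.2, 112 and 47.1 CPM with LPS. In SCR the values were 119, 96.9 and 127 CPM in medium and 161, 204 and 99.1 CPM with LPS. In KD they were 218, 56.2 and 90.7 CPM in medium and 215, 247 and 181 CPM with LPS. Libraries of 1 group thus differed by up to the 218 against 56.2 CPM of KD in medium. The pooled SD of log2 CPM within groups was 0.603, against a median of 0.128 for the 500 genes nearest in mean level, of which 0 had a larger SD. The LPS responses were 0.82 ± 0.38 in KD (adjusted p = 0.17), 0.44 ± 0.38 in SCR (adjusted p = 0.48) and -0.23 ± 0.38 in WT (adjusted p = 0.76). Fits without 1 KD library gave responses of 0.48 to 1.54 in KD, with adjusted p up to 0.45 and 1 of 6 called. The called fit was that without KD medium replicate 1, at 1.54 (adjusted p = 0.0025). Over all genes that fit called 3150 of 17181 for this response, in place of 1912 of 16678.

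The level of IRF8 moved with that of many other genes from library to library. Pearson's r of log2 CPM over the 18 libraries was above 0.9 for 256 of 10545 other genes with a mean of at least 5 CPM, and for at most 39 genes with any other member. These are correlations within 1 set of libraries, which share their depth, groups and processing. The closest were SNRPEP4, a processed pseudogene (r = 0.986), and ATP5PD, a subunit of the mitochondrial ATP synthase (r = 0.982). Processed pseudogenes made up 22.3% of the 256 genes and 6.2% of all those compared. The summed level of 11 EEF1A1 pseudogenes, copies of the gene for a translation elongation factor, ran from 3860 to 5450 CPM in WT with LPS and from 7350 to 9720 CPM in KD with LPS. In KD in medium it was 8260, 4210 and 5440 CPM, in the order in which IRF8 stood at 218, 56.2 and 90.7 CPM.

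With the log2 of this sum as a covariate, chosen after the data were seen, the SE of IRF8 in KD against WT with LPS fell from 0.38 to 0.20 and its value turned to -0.29 (adjusted p = 0.61). IRF1 then stood at -0.32 (adjusted p = 0.29) and IRF2BP2 at 0.26 (adjusted p = 0.34) in that comparison, so that none of the 3 calls was kept. Over all 16678 genes tested the covariate left 63 called there, in place of 1808. Since the sum itself did not overlap between these 2 groups, it and the groups cannot be told apart there. Between SCR and KD in medium, where the sums overlapped, the same covariate gave -0.37 ± 0.09 for IRF1 (adjusted p = 0.027). Over all genes it called 337 there, in place of 11. Between SCR and KD with LPS, where the sums also overlapped, it gave -0.20 ± 0.10 for IRF1 (adjusted p = 0.46), in place of -0.34. The covariate gave an IRF8 response to LPS of 0.53 ± 0.14 in SCR (adjusted p = 0.0057) and -0.07 ± 0.16 in KD. The B cell markers also moved with the groups, from 36.8 to 44.7 CPM in WT with LPS to 47.8 to 52.6 CPM in KD with LPS, where MS4A1 and CD79A stayed at or below 0.248 CPM in every library. Their part in the IRF8 result was not tested. The IRF8 call in KD against WT with LPS was also lost without WT LPS replicate 4 or 6 or KD LPS replicate 4 or 5, with log2 values of 1.03 to 1.42 and adjusted p up to 0.17.

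**Figure D4:**
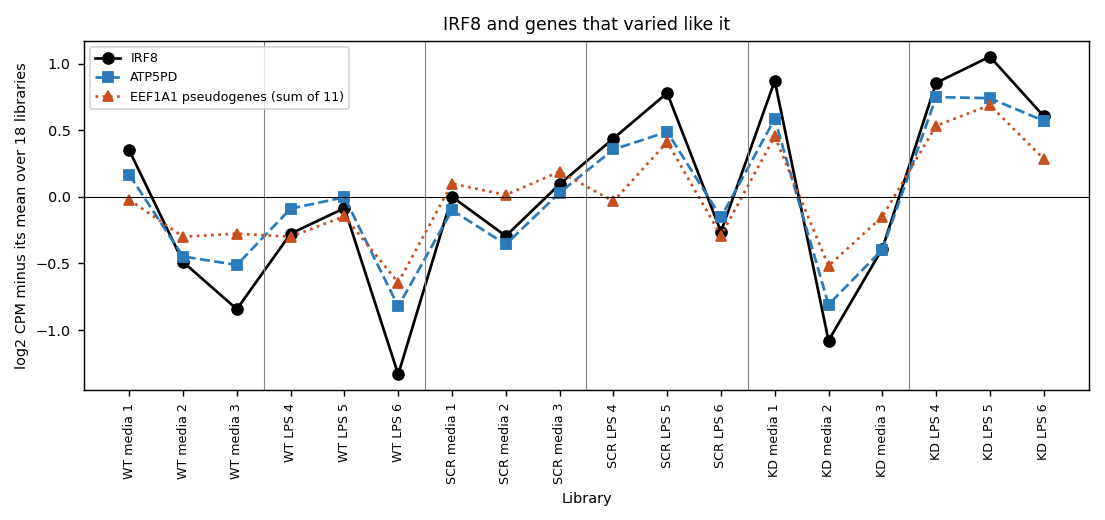
Log2 CPM minus its mean over the 18 libraries (vertical axis) of IRF8, ATP5PD and the sum of 11 EEF1A1 pseudogenes in each library (horizontal axis, grouped). IRF8 is lowest in WT LPS replicate 6 and highest in KD LPS replicate 5, where the sum of the EEF1A1 pseudogenes is also lowest (3860 CPM) and highest (9720 CPM).

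Of the other members, IRF1 varied most like PTPN1, a phosphatase that acts on JAK kinases (r = 0.967), and SLC16A3, a lactate exporter (r = 0.958), and IRF2BP2 most like LDLRAD4 (r = 0.949) and RNF44 (r = 0.938). IRF2 varied most like MT-ND5 (r = 0.924) and MDN1 (r = 0.905). The highest values were lower for the rest, with ZNF182 (0.825) and KRIT1 (0.789) for IRF9, TSPYL1 (0.769) and SSU72 (0.764) for IRF5, and RPS15P5 (0.723) and PIP4K2A (0.715) for IRF3. Between members, r ran from -0.908 for IRF1 with IRF2BP2 to 0.578 for IRF1 with IRF9. These r values carry the LPS and siRNA groups as well as the spread within them.

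Reads were counted over 500 bases at the end of each gene, and the strand setting of the counting is not given in the sources used here. IRF1 and IRF3 overlap IRF1-AS1 and BCL2L12 on the opposite strand, but the last 500 bases of these genes do not meet in the annotation used here. IRF9 overlaps ENSG00000259529, a gene on the same strand that had 1371 counts against 972 for IRF9 and rose with LPS in SCR (1.36, adjusted p = 0.006). Their last 500 bases do not meet when the IRF9 transcript that ends farthest downstream is taken (1091 bases apart), and share 387 bases when the end common to 24 of its 70 transcripts is taken. The gene ends of the authors' release were not analysed here, so the values of IRF9 are uncertain in this respect.

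Some genes that work upstream of the IRFs passed the test for a response to LPS. Of 13 kinases and adaptors tested, 2 rose and 2 fell in WT, 3 rose and 2 fell in SCR, and 5 rose and 1 fell in KD, with median log2 values of 0.06, 0.14 and 0.34. Over all genes 7.01% rose and 7.26% fell in WT, 8.64% and 8.56% in SCR, and 6.41% and 5.05% in KD, with medians of -0.03, -0.03 and -0.003. These shares are the background of all 5 gene lists, which were chosen with earlier results of these data known. TRAF3, the ubiquitin ligase that links TLR4 to the IRF3 kinases, rose by 0.86 ± 0.10 in WT (adjusted p = 1.61e-06), by 0.77 ± 0.10 in KD (adjusted p = 1.18e-05) and by 0.38 ± 0.10 in SCR (adjusted p = 0.0094). TICAM1, the adaptor of the IRF3 branch, rose by 0.87 ± 0.17 in WT (adjusted p = 0.0012) and 0.75 ± 0.17 in KD (adjusted p = 0.0059), and stood at 0.14 ± 0.17 in SCR. TICAM2 had 3 counts in all and IKBKE and CCL5 are listed at 0 under their identifiers in the annotation used here, which can differ from those of the authors' release.

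Of the 9 interferon receptors, JAKs and STATs tested, 2 rose in WT, 3 rose in SCR, 1 rose in KD, and none fell. IFNGR2, a chain of the interferon gamma receptor, rose by 1.23 ± 0.08 in WT (adjusted p = 3.13e-10), 1.08 ± 0.08 in KD (adjusted p = 5.45e-09) and 0.96 ± 0.08 in SCR (adjusted p = 2.5e-08). IFNAR2, a chain of the type I interferon receptor, rose by 0.38 ± 0.10 in WT (adjusted p = 0.017) and 0.49 ± 0.10 in SCR (adjusted p = 0.0027), and stood at 0.12 ± 0.10 in KD. Among the 9 DNA-binding partners and cofactors, 2 rose and 2 fell in WT and in SCR, and 1 rose and 1 fell in KD. The rising BATF2, which pairs with IRF1 in macrophages, went from 33.5 ± 3.59 to 75.5 ± 8.58 CPM in WT, 30 ± 3.08 to 62 ± 6.16 CPM in SCR and 26.8 ± 5.34 to 47.7 ± 2.56 CPM in KD (SD, n = 3). The falling BATF3, a partner of IRF8, stood at -0.58 ± 0.19, -0.78 ± 0.19 and -0.94 ± 0.18 (SE) in WT, SCR and KD, all past the threshold.

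Downstream, 7 of 9 early IRF target genes rose in WT, 6 did so in SCR and 4 in KD, none fell, and their median log2 values were 0.72, 0.66 and 0.42. These responses began from unlike levels. In medium 5 of the 9 were called higher in KD than in WT (median log2 0.47) and 2 in SCR than in WT (median 0.27). Over all genes 11.7% and 3.23% were called there in either direction, with medians of -0.008 and 0.006. CXCL10, a chemokine gene with IRF and NF-kappa-B sites, went from 2.26 ± 1.61 to 304 ± 14.6 CPM in WT, 9.15 ± 1.53 to 268 ± 23.8 CPM in SCR and 4.94 ± 1.01 to 204 ± 37.1 CPM in KD (SD, n = 3). Its response in SCR differed from that in WT by -2.08 ± 0.35 (SE, adjusted p = 0.0074), and its level in medium was higher in SCR than in WT. ISG20, an interferon-induced exonuclease, went from 56.3 ± 2.52 to 102 ± 7.23 CPM in WT (SD, n = 3). It went from 75.5 ± 1.01 to 89.4 ± 5.02 CPM in SCR and from 79.9 ± 6.04 to 95.1 ± 6.11 CPM in KD. Its level in medium was called higher in SCR and in KD than in WT. ISG20 rose with LPS by 0.85 ± 0.09 (SE) in WT and stood at 0.24 ± 0.09 in SCR and 0.25 ± 0.09 in KD. Its response differed from that in WT by -0.60 ± 0.13 in KD, which passed (adjusted p = 0.047), and by -0.61 ± 0.13 in SCR (adjusted p = 0.057, called by DESeq2). The inhibitors of IRF and interferon signalling counted 2 of 8 that rose in WT, 4 in SCR and 5 in KD, with RBCK1, a linear ubiquitin ligase subunit, falling in SCR and KD (-0.54 ± 0.11 and -0.61 ± 0.11). TNFAIP3, the ubiquitin-editing enzyme A20, went from 11.5 ± 1.19 to 124 ± 5.1 CPM in WT, from 24.7 ± 2.27 to 145 ± 10.6 CPM in SCR and from 22.9 ± 7.23 to 119 ± 9.16 CPM in KD (SD, n = 3). Its response differed from that in WT by -1.05 ± 0.23 (SE) in KD (adjusted p = 0.046) and by -0.88 ± 0.23 in SCR (adjusted p = 0.17, called by DESeq2). In KD against SCR edgeR called 0 of the 48 list genes in either state, with 10 in medium and 7 with LPS at an unadjusted p under 0.05. DESeq2 called 3 there in medium (IFIT2, IFNGR2 and USP18) and 1 with LPS (TANK), which are named for that reason after their values were seen, beside 1.8% and 1.28% of all genes by DESeq2. In the test of whether the response in KD differed from that in SCR both tools called 0 of 48, with 6 at an unadjusted p under 0.05 by edgeR.

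**Figure D5:**
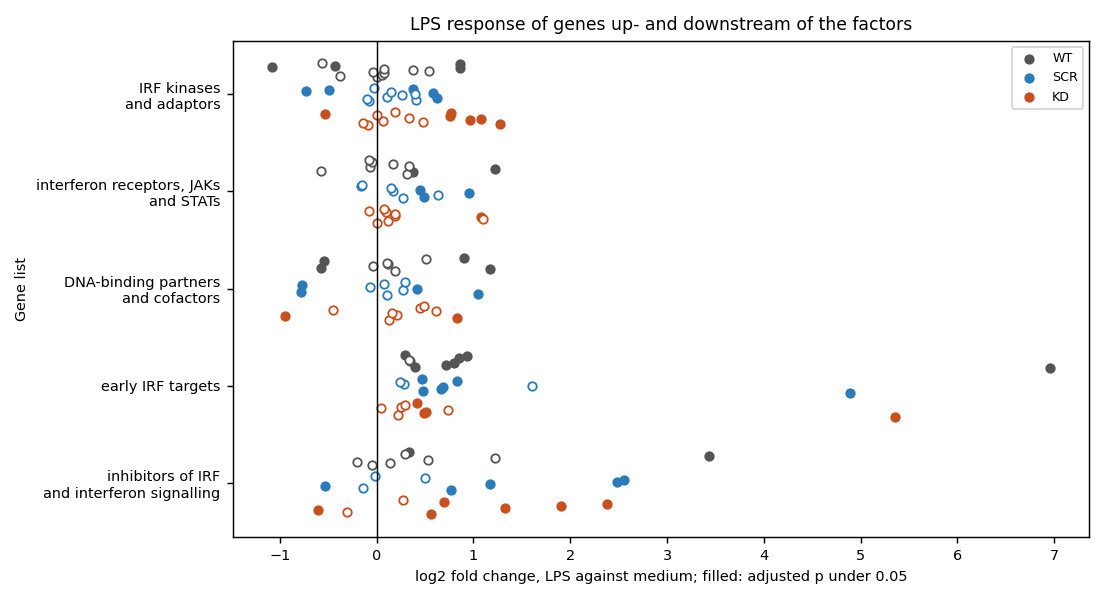
Log2 fold change of LPS against medium (horizontal axis) of each gene tested in the 5 lists (vertical axis), in WT, SCR and KD cells, filled where the adjusted p was under 0.05. CXCL10 reaches 6.96 and TNFAIP3 3.43 in WT, and the early targets lie to the right of 0 in all 3 conditions.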

How the data were processed

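QuantSeq 3-prime libraries of 18 THP-1 samples were used. Per the labels and the study's methods, the authors aligned reads with HISAT to GRCh37, counted them with featureCounts over the last 500 bases of each Ensembl gene and deposited raw counts, with no normalization and with replicates kept apart. The version of HISAT and the strand setting are not given in the sources used here. All 18 value columns were used and 0 were left out. Of 63677 genes, 55665 had a symbol in the annotation.

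Genes with low counts were removed by filterByExpr by group, which left 16678. A model with 6 group means and no other term was fitted to the 18 libraries in R 4.3.3 with edgeR 4.0.16 (TMM, quasi-likelihood F test), with Benjamini-Hochberg adjustment and a threshold of 0.05. CPM use TMM-scaled totals, and r used log2 CPM with a prior count of 2. SE was taken as the log2 value over the root of its F statistic. An exact permutation test of 3 against 3 cannot go below 0.1. The procedure was tested on simulated data.

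The members and gene lists were chosen with earlier results of these data known. Named were all members, TRAFD1, from each list the 2 genes with the smallest adjusted p over the LPS responses and any past the threshold in KD against SCR or an interaction, and for each member the 2 genes of at least 5 CPM with the highest r. A few genes that this rule names are not reported here.

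Alternatives were DESeq2 1.42.0, no filter, RLE size factors, a GC offset, the groups compared alone, each library left out, a replicate block and a covariate. Same-numbered libraries deviated together in every pair (r 0.163 to 0.261) only in SCR against WT with LPS, where the block changed no member's call. No 2 libraries were identical.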

Additional observations from a re-analysis of the deposited data

How the results depend on the processing

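IRF4, at 0 to 22 counts per library, was not tested at this depth. IRF9 passed in the LPS response without the filter on low counts in WT and SCR, and with only the groups compared in SCR. The 45 member values larger than their SE were recomputed under each alternative, which gave 301 values on the same side of 0 and of the threshold, 10 that lost a call, 15 that gained one and 4 that reversed. The fits without 1 library gave 302, 18, 3 and 1. All 4 reversals were IRF8 with the EEF1A1 pseudogene level as a covariate, chosen after the data were seen, at -0.40 in KD against SCR with LPS, -0.29 in KD against WT with LPS, -0.07 in the LPS response in KD and -0.14 in that response against WT. That covariate gave 1 member called in KD against SCR in medium, in place of 0, and 0 in KD against WT with LPS, in place of 3. Over all 16678 genes it called 337 in the first, in place of 11, and 63 in the second, in place of 1808. The cause was not tested.

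Without the filter on low counts 1 member (IRF8) was called in KD against SCR with LPS, in SCR against WT with LPS and in the responses of SCR and of KD against that of WT, and 2 in the LPS response in KD. Over all 34092 genes with counts the fit without the filter called 425, 593, 241, 729 and 2238 in these comparisons, in that order. With the filter 0, 19, 39, 60 and 1912 of 16678 were called. The GC offset gave 2 members for the LPS response in KD and the fit of the groups compared alone gave 0, in place of 1. Leaving out 1 library gave 1 to 3 members for the LPS response in SCR, 1 to 2 for that in KD, and 2 to 3 for that in WT and for KD against WT with LPS. It gave 0 to 2 for the response in KD against WT, and 0 in the others. The 2 were found without KD medium replicate 1, at 1.78 for IRF8 and 0.47 for IRF2BP2. Over all genes that fit called 1313 of 17181 in this comparison, in place of 60 of 16678. IRF9 in the LPS response in KD ran from -0.01, without KD LPS replicate 6, to 0.97. The 1.5-fold limit was not crossed in the other counts.

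A replicate block gave 2 members for the LPS response in KD against that in WT, IRF8 at 1.23 (adjusted p = 0.038) and IRF2BP2 at 0.42 (adjusted p = 0.042), and 1 with the GC offset added. The numbers are shared by labels only there, and the block changed no other count of members by over 1.5 times. Over all 16678 genes the block called 547 in the LPS response in KD against that in WT, in place of 60, and 483 with the GC offset added. The LPS responses within a condition share no numbers, so no block could be fitted.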
